A study of Homo sapiens with 18 samples.

Results

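The nuclear genes of the mitochondrial respiratory chain were followed in 2 human acute myeloid leukaemia lines after 48 h with a DNA methyltransferase inhibitor. Members were the protein-coding genes listed for both lines whose symbols begin with NDUF, UQCR, COX4I, COX5, COX6, COX7, COX8, or one of the ATP5 stems of the F1, c ring, membrane and stalk parts, plus SDHA, SDHB, SDHC and SDHD. The rule uses names and no measured value, and it found 86 genes of the 15517 that both lines' tables held. They comprised 37 complex I subunits, 8 complex I assembly factors named NDUFAF, 4 complex II, 9 complex III, 13 complex IV and 15 ATP synthase genes. HL-60 and MOLM-13, cell lines of myeloid leukaemia, each received dimethyl sulfoxide (DMSO, the solvent), decitabine (DAC, a deoxycytidine analogue that traps DNA methyltransferases) or NTX-301 (a nucleoside analogue of the same class). With 3 replicates a group there were 18 samples, and the labels speak of triplicate wells but not of separate cultures, so p-values measure only the spread between these samples. The labelled concentration was 30 nM in HL-60 cells and 15 nM in MOLM-13 cells, and the wording does not settle whether it covers both drugs or only DAC; dose and line cannot be told apart. All groups were plated in 6-well dishes in RPMI1640 medium and the labels name no difference between them beyond line, agent and concentration. The measure was total RNA sequencing, given as 1 normalized log2 value per gene and sample.

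The respiratory chain passes electrons from NADH (complex I) and succinate (complex II) through complexes III and IV to oxygen, and the proton gradient so formed drives ATP synthase. Its complexes are mosaics: a small set of subunits is encoded by mitochondrial DNA and the rest by nuclear genes whose products are imported. Leukaemic cells are known to draw on this oxidative metabolism, and many of the nuclear genes have promoters bound by NRF1, by the ETS factor GABPA or by YY1.

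Values were on the log2 scale throughout, and a difference of log2 values is given as drug minus DMSO unless stated. Tests were made with limma over all genes of a line, and a gene counted as called at a Benjamini-Hochberg adjusted p under 0.05. All 86 members passed the filter on low values in both lines. The 2 lines' tables differ in their gene sets and appear normalized apart, read depth is unknown, and the method of normalization is not given in the sources used here. The median replicate SD of the members lay between 0.034 and 0.048 in the 6 groups. Myeloid markers (MPO, CD33, SPI1, CEBPA and PTPRC) were listed for both lines. Of the markers chosen for a single line, HOXA9 and MEIS1 were listed for MOLM-13 only. FLT3 and LYZ, also chosen for MOLM-13, were listed for both lines, as were ELANE, AZU1, PRTN3 and EPX, chosen for HL-60. Of 12 markers of other cell types, 1 was listed for HL-60 (PECAM1) and 5 for MOLM-13 (CD3D, HBA1, HBB, COL1A1 and PECAM1). In bulk RNA, fewer cells with a given transcript and less RNA per cell cannot be told apart.

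Promoter sequence from RefSeq (build GRCh38.p14, 250 bases before to 50 after the gene start) was found for 72 of the 86 members. The NRF1 core (GCGCA, any base, then GCGC), searched like the other motifs on both strands, stood in 16 of these 72 (22.2%) and in 6.28% of 27305 promoters of the same length. The ETS core CCGGAAG, to which GABPA can bind, stood in 20 (27.8%) against 10.7% of all promoters, and the YY1 core AAGATGGCG in 8 (11.1%) against 1.85%. At least 1 of the 3 motifs was present in 37 (51.4%), against 17.0% of all promoters. The stretches below lie upstream of the start of members whose values are described later; capitals mark the NRF1 core, the ETS core or the reverse complement of either, and all are written 5′ to 3′ on the gene's strand. SDHA is shown over the full 250 bases because it holds 4 NRF1 cores in a repeated arrangement.
SDHA, chr5:218070-218319, plus strand: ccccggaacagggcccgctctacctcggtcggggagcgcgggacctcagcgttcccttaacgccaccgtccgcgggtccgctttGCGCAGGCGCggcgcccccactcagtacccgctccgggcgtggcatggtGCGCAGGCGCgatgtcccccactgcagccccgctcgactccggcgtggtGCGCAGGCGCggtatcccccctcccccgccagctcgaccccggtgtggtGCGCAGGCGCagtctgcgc
SDHB, chr1:17054113-17054172, minus strand: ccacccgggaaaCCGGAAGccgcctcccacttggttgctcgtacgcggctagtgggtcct
SDHD, chr11:112086753-112086812, plus strand: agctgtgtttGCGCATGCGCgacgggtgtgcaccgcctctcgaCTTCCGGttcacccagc
NDUFA9, chr12:4649004-4649063, plus strand: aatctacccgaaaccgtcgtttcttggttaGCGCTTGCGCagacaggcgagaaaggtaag
NDUFAF4, chr6:96898012-96898071, minus strand: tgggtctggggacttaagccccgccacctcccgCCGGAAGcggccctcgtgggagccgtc
UQCRC1, chr3:48609667-48609726, minus strand: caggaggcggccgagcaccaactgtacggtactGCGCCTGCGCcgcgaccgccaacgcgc
UQCRH, chr1:46303618-46303677, plus strand: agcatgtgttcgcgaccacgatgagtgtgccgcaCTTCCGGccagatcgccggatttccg
COX5B, chr2:97646002-97646061, plus strand: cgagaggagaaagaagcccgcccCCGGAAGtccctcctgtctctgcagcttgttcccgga
The files name hg19, so these GRCh38.p14 coordinates belong to the reference table and not to the expression values. A match is a string of letters and not a measured binding site. With NTX-301 in MOLM-13, members with and without each motif had close medians. For the NRF1 core the median difference was -0.21 with it and -0.20 without it. For the ETS core it was -0.18 and -0.21, and for the YY1 core -0.24 and -0.20. With NTX-301 in HL-60 the medians with and without the NRF1 core were 0.0036 and -0.030. Those for the ETS core were -0.017 and -0.014, and for the YY1 core -0.038 and -0.016. Promoters were not split by expression level.

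In MOLM-13 the nuclear respiratory genes were lower with both drugs. DAC lowered 62 of the 86 members and raised 1, where 21.2% of all 17475 genes tested were called lower and 15.4% higher. NTX-301 lowered 73 and raised none, where 24.8% of all genes were called lower and 20.3% higher. The members' median difference was -0.14 with DAC and -0.20 with NTX-301, or -9.18% and -12.7% on the linear scale, beside a median of all genes of 0.0013 and 0.0034. Differences of single members were small and reached at most -0.44. Under quantile normalization the DAC split was 32 lower and 3 higher with a median of -0.072, the NTX-301 split was 53 lower and 2 higher with a median of -0.11, and under a test for a change beyond 0.1 the counts lower were 20 with DAC and 44 with NTX-301. The 2 comparisons share their DMSO samples.

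In HL-60 the effect was smaller and differed between drugs. DAC lowered 38 members and raised 1, where 12.6% of all 17046 genes were called lower and 11.6% higher, with a median difference of -0.082. NTX-301 lowered 18 and raised 3, where 19.2% of all genes were called lower and 18.3% higher, with a median of -0.014. The share lower with NTX-301, 20.9%, was thus near that of all genes. This split depended on scaling: it was 31 lower and 1 higher with samples centred on their medians. With quantile normalization it was 13 lower and 7 higher, and the members' median turned to 0.0098. With DAC, the count lower was 20 without DMSO replicate 2 and 22 without DAC replicate 2.

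**Figure D1:**
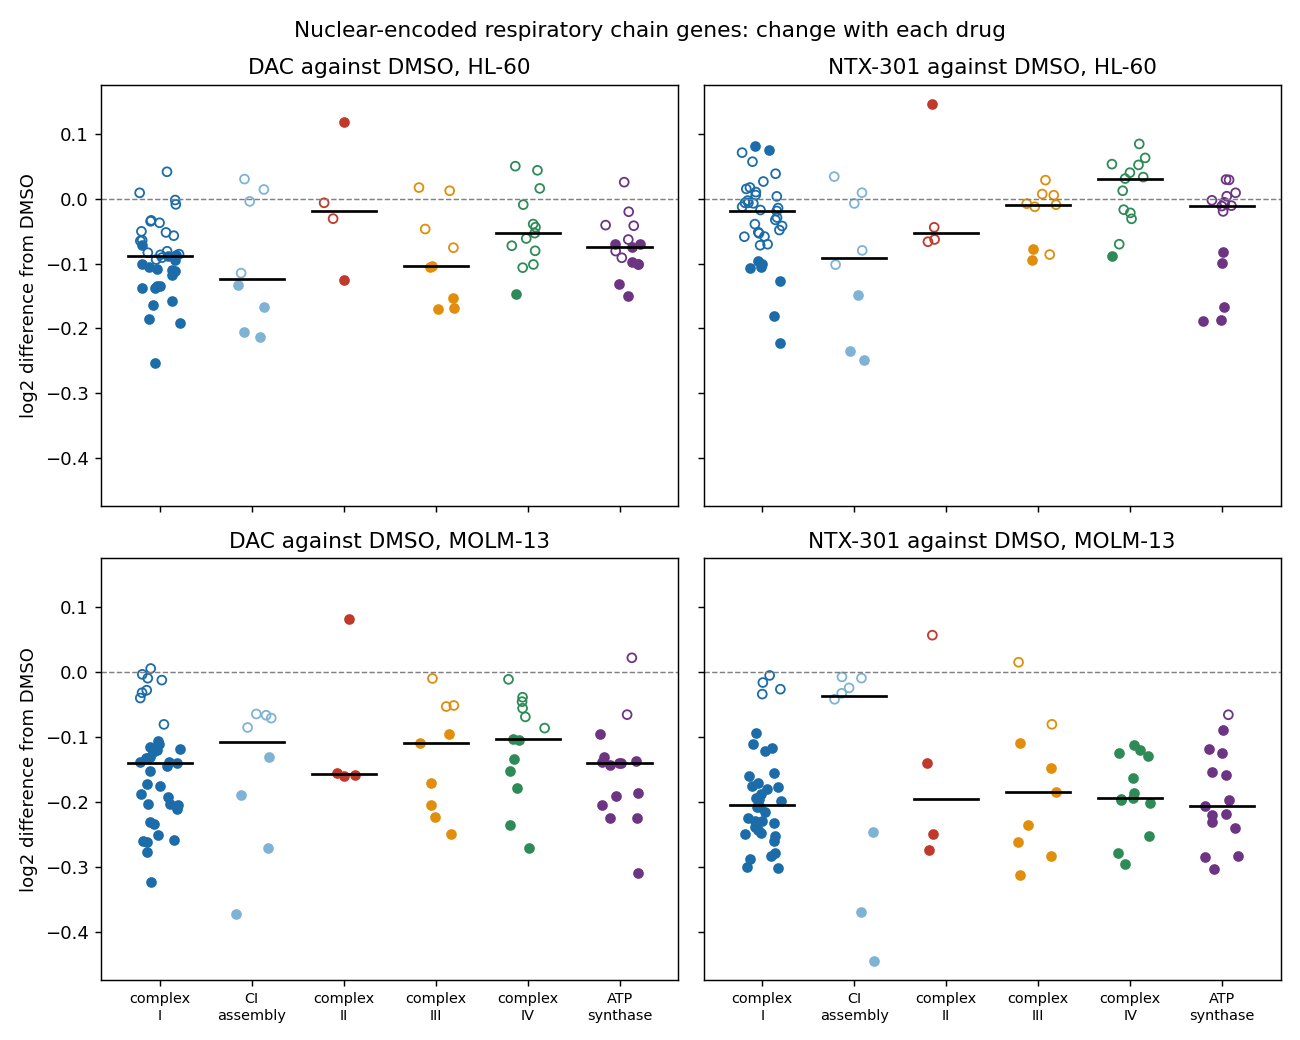
Log2 difference from DMSO of each of the 86 genes (points) by complex, for each drug and line; filled points were called by limma, open points were not, and black bars are medians. In MOLM-13 the medians lie below 0 in all 6 groups of genes, with NTX-301 between -0.21 and -0.037; in HL-60 with NTX-301 they lie between -0.091 and 0.031.

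The members share traits with other genes that also moved, and those are given beside the counts. The median length of their coding transcripts was 716 bases, against 1815 for well-expressed genes with a length, and 66 of the 86 were under 1000 bases. In all, 82 of the 86 averaged a log2 value of 10 or more in both lines at once, as did 7298 of all genes. Of those 7298 well-expressed genes, 22.05% were lower with DAC in HL-60 against 42.4% in MOLM-13; with NTX-301 these shares were 34.1% and 48.9%. Of the 1825 that were also under 1000 bases, 27.5% were lower with DAC in HL-60 against 49.5% in MOLM-13; with NTX-301 these shares were 30.6% and 56.5%. The same shares of the members were 44.2% and 72.1% (DAC), and 20.9% and 84.9% (NTX-301). The part of level and length in the members' counts was not tested.

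Per sample, the members' median was followed relative to the DMSO mean of its line. In MOLM-13 it ran from -0.032 to 0.028 in DMSO, -0.19 to -0.11 under DAC and -0.21 to -0.18 under NTX-301, so that no treated sample overlapped the DMSO samples. In HL-60 it ran from -0.026 to 0.026 in DMSO, -0.10 to -0.051 under DAC and -0.045 to 0.0019 under NTX-301, and the last group overlapped DMSO. The subunits encoded by mitochondrial DNA did not follow. All 13 are listed, and in MOLM-13 their median ran from -0.022 to 0.036 in DMSO, 0.18 to 0.27 under DAC and 0.16 to 0.26 under NTX-301. In MOLM-13, DAC raised 9 of the 13 and NTX-301 raised 10, with none lower and medians of 0.21 and 0.22. That is 69.2% and 76.9%, where 15.4% and 20.3% of all genes were called higher. In HL-60, 3 were higher and none lower with DAC, and 2 were higher and 2 lower with NTX-301. The 3 are 23.1%, where 11.6% of all genes were called higher. How the counts of these 13 depend on scaling or on single samples is not given here.

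**Figure D2:**
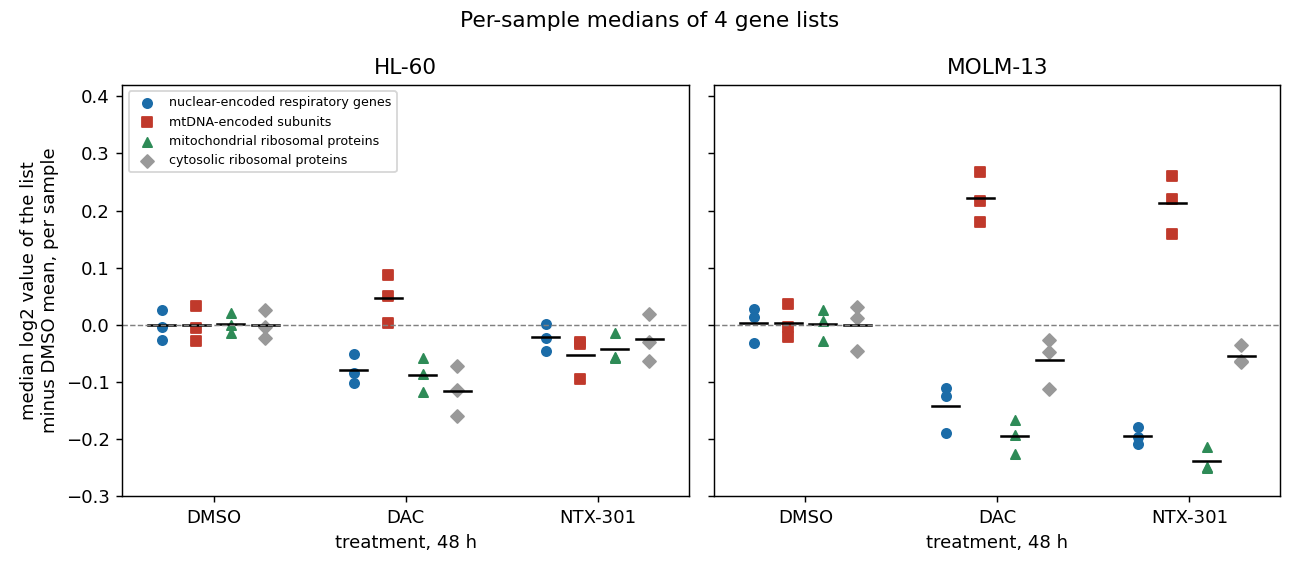
Median log2 value of 4 gene lists in each of the 18 samples, minus the DMSO mean of the line (points; black bars are means, n = 3). In MOLM-13 the nuclear-encoded genes lie between -0.21 and -0.11 in the treated samples and the mitochondrial DNA encoded subunits between 0.16 and 0.27.

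The mitochondrial DNA encoded subunits that rose most with NTX-301 in MOLM-13 were ND1 of complex I (0.40 ± 0.053 SE, limma adjusted p = 9.8e-05), ATP6 of ATP synthase (0.34 ± 0.041, adjusted p = 4.7e-05) and CYTB of complex III (0.32 ± 0.034, adjusted p = 1.8e-05). COX3 of complex IV stood apart, at 0.030 with DAC and 0.012 with NTX-301, neither called. In HL-60 with NTX-301 the subunits split: COX1 (0.25) and CYTB (0.22) rose, while ATP6 (-0.17) and ATP8 (-0.15) fell. The calls in each direction are 15.4% of the 13, where 18.3% of all genes were called higher and 19.2% lower.

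Complex I holds the NADH-oxidising core and a large shell of accessory subunits. In HL-60, 19 of its 37 genes were lower with DAC and 7 with NTX-301, 2 being higher with the latter, and these 7 are 18.9% of the complex where 19.2% of all genes were lower; in MOLM-13, 29 and 33 were lower and none higher. With DAC the counts lower are 51.4% (HL-60) and 78.4% (MOLM-13), where 12.6% and 21.2% of all genes were lower. With NTX-301 in MOLM-13 it is 89.2%, where 24.8% of all genes were lower. The median difference with DAC was -0.088 in HL-60 and -0.14 in MOLM-13. With NTX-301 it was -0.019 and -0.21. Under quantile normalization the HL-60 median for NTX-301 turned to 0.0087, and 15 complex I genes were lower with DAC in MOLM-13, with 1 higher; with samples centred, 14 were lower with NTX-301 in HL-60. Of the 7 core subunits, DAC lowered 3 in HL-60 against 5 in MOLM-13, while NTX-301 lowered 2 against 6. The 2 are 28.6% of the core, below the 34.1% of well-expressed genes lower with NTX-301 in HL-60. NDUFA10 (-0.0050), NDUFB5 (-0.026) and NDUFV3 (-0.016) were among the complex I genes not called with NTX-301 in MOLM-13.

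NDUFS1 and NDUFV1 belong to the electron-input module; NDUFV1 carries the flavin that takes electrons from NADH. NDUFS1 in MOLM-13 measured 14.32, 14.38 and 14.34 in DMSO, 14.27, 14.17 and 14.17 with DAC, and 14.19, 14.16 and 14.15 with NTX-301. All 6 treated samples lay below the 3 DMSO samples, by -0.14 ± 0.029 SE (limma adjusted p = 0.0026) and -0.18 ± 0.029 (adjusted p = 0.00042). The NDUFS1 call for DAC was lost under quantile normalization (-0.048). In HL-60 its values kept between 13.67 and 13.73 in the 9 samples, and neither drug was called. NDUFV1 in MOLM-13 measured 13.61, 13.63 and 13.64 in DMSO, 13.52, 13.50 and 13.52 with DAC, and 13.43, 13.42 and 13.36 with NTX-301, 3 groups without overlap. NTX-301 was below DAC by -0.11 ± 0.025 (adjusted p = 0.023), a call lost without DAC replicate 1 or 3 or NTX-301 replicate 2 or 3. The NDUFV1 call for DAC (-0.12) was lost under quantile normalization (-0.017). In HL-60, NDUFV1 fell with DAC (-0.11 ± 0.029, adjusted p = 0.012; not called without DMSO replicate 3 or DAC replicate 2) and was at -0.059 with NTX-301, not called.

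NDUFA7, an accessory subunit of the matrix arm, had the largest fall of any member with DAC in HL-60. It measured 9.76, 9.90 and 9.80 in DMSO, 9.62, 9.50 and 9.58 with DAC, and 9.59, 9.67 and 9.54 with NTX-301 in HL-60. Both treated groups lay wholly below DMSO, by -0.25 ± 0.047 SE (limma adjusted p = 0.0015) and -0.22 ± 0.047 (adjusted p = 0.0018). In MOLM-13 it measured 10.83, 10.89 and 10.84 in DMSO, 10.58, 10.64 and 10.59 with DAC, and 10.66, 10.67 and 10.52 with NTX-301, again without overlap. The falls there, -0.25 and -0.24, were close to those in HL-60: the line differences were 0.0027 ± 0.067 (DAC) and -0.015 ± 0.067 (NTX-301), neither called.

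NDUFA6, another matrix-arm subunit, and NDUFB6, of the membrane arm, fell further in MOLM-13. NDUFA6 measured 12.004, 12.03 and 12.01 in DMSO, 11.76, 11.69 and 11.62 with DAC, and 11.77, 11.70 and 11.72 with NTX-301 in MOLM-13. DAC lowered it by 0.32 on the log2 scale in MOLM-13 and by 0.14 in HL-60 (-0.32 ± 0.035 and -0.14 ± 0.030 SE), and the line difference was called (limma adjusted p = 0.0054). NDUFB6 in MOLM-13 measured 10.78, 10.83 and 10.91 in DMSO, 10.60, 10.54 and 10.54 with DAC, and 10.63, 10.64 and 10.56 with NTX-301. Its 6 treated samples lay below DMSO in MOLM-13, while in HL-60 its DMSO values (10.64 to 10.68) overlapped both treated groups and nothing was called.

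NDUFA9, an accessory subunit near the quinone site, moved in opposite directions. In HL-60 it measured 12.60, 12.66 and 12.61 in DMSO, 12.57, 12.53 and 12.62 with DAC, and 12.73, 12.70 and 12.68 with NTX-301. The NTX-301 samples lay above the other 6, with a difference from DMSO of 0.081 ± 0.027 SE (limma adjusted p = 0.027); the call was lost with samples centred (0.052) and without DMSO replicate 1 or 3 or NTX-301 replicate 1 or 2. The MOLM-13 values were 12.81, 12.91 and 12.89 in DMSO, 12.71, 12.71 and 12.63 with DAC, and 12.65, 12.64 and 12.60 with NTX-301. The NTX-301 difference there was -0.24 ± 0.032 (adjusted p = 8.7e-05), and the line difference was -0.32 ± 0.042 (adjusted p = 6.7e-06).

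In HL-60 several accessory subunits were lower with DAC than with NTX-301. NDUFB11, of the membrane arm, measured 12.06, 12.16 and 12.11 in DMSO, 12.01, 12.02 and 11.98 with DAC, and 12.15, 12.21 and 12.21 with NTX-301. NTX-301 exceeded DAC by 0.18 ± 0.028 SE (limma adjusted p = 0.00021) with no overlap; its excess over DMSO (0.075, adjusted p = 0.048) overlapped DMSO, was not called with samples centred (0.047), and held on leaving out a sample only without DMSO replicate 2 or NTX-301 replicate 1. NDUFB2, also of the membrane arm, measured 11.29, 11.36 and 11.36 in DMSO, 11.13, 11.10 and 11.22 with DAC, and 11.28, 11.32 and 11.38 with NTX-301. Here only the DAC samples stood apart, and NTX-301 exceeded DAC by 0.18 ± 0.036 (adjusted p = 0.0019). NDUFA11, a membrane-arm subunit, measured 11.74, 11.77 and 11.84 in DMSO, 11.64, 11.59 and 11.64 with DAC, and 11.77, 11.81 and 11.79 with NTX-301. It followed the same order, with NTX-301 above DAC by 0.17 ± 0.028 (adjusted p = 0.00044). NDUFV3, an accessory subunit of the NADH module, went the other way in HL-60: 10.87, 10.83 and 10.92 in DMSO, 10.90, 10.85 and 10.91 with DAC, and 10.76, 10.75 and 10.80 with NTX-301, which was below DAC by -0.11 ± 0.030 (adjusted p = 0.011). NDUFB10, of the membrane arm, measured 11.94, 11.95 and 11.93 in DMSO, 11.83, 11.89 and 11.79 with DAC, and 11.74, 11.61 and 11.63 with NTX-301 in MOLM-13. Its 3 groups there formed a descending order without overlap, and NTX-301 was below DAC by -0.17 ± 0.037 (adjusted p = 0.019), a call lost without DAC replicate 2 or NTX-301 replicate 2 or 3.

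The assembly factors named NDUFAF build complex I and are not part of the finished enzyme. Of the 8, 4 were lower with DAC in each line, and 3 with NTX-301 in each line, and none was higher. That is 50% with DAC, where 12.6% of all genes were lower in HL-60 and 21.2% in MOLM-13. With NTX-301 it is 37.5%, where 19.2% of all genes were lower in HL-60 and 24.8% in MOLM-13. With samples centred, all 8 complex I assembly factors were lower with DAC in MOLM-13. The largest change of any member was in NDUFAF4, which acts with NDUFAF3 on the quinone module. NDUFAF4 in MOLM-13 measured 11.56, 11.56 and 11.51 in DMSO, 11.33, 11.24 and 11.24 with DAC, and 11.13, 11.08 and 11.09 with NTX-301. The groups did not overlap, and the fall with NTX-301 was -0.44 ± 0.033 SE (limma adjusted p = 1.9e-06), or -26.5% on the linear scale. NTX-301 lay below DAC by -0.17 ± 0.033 (adjusted p = 0.011). In HL-60 it measured 11.17, 11.16 and 11.15 in DMSO, 10.94, 11.07 and 11.08 with DAC, and 11.00, 10.97 and 11.07 with NTX-301, falls of -0.13 and -0.15.

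NDUFAF2, a late-acting factor, measured 10.02, 9.95 and 10.04 in DMSO, 9.66, 9.58 and 9.65 with DAC, and 9.73, 9.59 and 9.59 with NTX-301 in MOLM-13. Both drugs lowered it to about the same degree there (-0.37 ± 0.049 SE for each, limma adjusted p = 0.00014 and 9.7e-05). In HL-60 it was not called (-0.11 and -0.080), and the line differences were -0.26 ± 0.074 (DAC, adjusted p = 0.013) and -0.29 ± 0.074 (NTX-301, adjusted p = 0.0043). NDUFAF1, a factor for the membrane arm, measured 10.34, 10.39 and 10.30 in DMSO, 10.03, 10.17 and 10.20 with DAC, and 10.10, 10.10 and 10.09 with NTX-301 in HL-60. In MOLM-13 the samples read 10.87, 10.92 and 10.92, then 10.77, 10.71 and 10.67, then 10.68, 10.71 and 10.58 in the same order of groups. NDUFAF1 was lower with both drugs in both lines (HL-60, -0.21 and -0.25; MOLM-13, -0.19 and -0.25).

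NDUFAF3 showed the opposite line preference to its partner NDUFAF4. It measured 10.80, 10.89 and 10.95 in DMSO, 10.62, 10.70 and 10.71 with DAC, and 10.65, 10.60 and 10.68 with NTX-301 in HL-60, falls of -0.21 ± 0.039 and -0.23 ± 0.039 SE (limma adjusted p = 0.0017 and 0.00027). MOLM-13 gave 10.71, 10.69 and 10.65 in DMSO, 10.61, 10.59 and 10.64 with DAC, and 10.62, 10.69 and 10.61 with NTX-301, and neither drug was called. The line difference was called for NTX-301 (0.19 ± 0.053, adjusted p = 0.0071) and not for DAC (0.13 ± 0.053, adjusted p = 0.062).

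Complex II, succinate dehydrogenase, has only nuclear-encoded subunits, and its 4 genes did not move together. SDHA, the flavoprotein that oxidises succinate, measured 12.79, 12.84 and 12.86 in DMSO, 12.98, 12.92 and 12.95 with DAC, and 12.95, 12.96 and 13.01 with NTX-301 in HL-60. It was the only member called higher with DAC in HL-60 (0.12 ± 0.025 SE, limma adjusted p = 0.0035), and it was higher with NTX-301 as well (0.15 ± 0.025, adjusted p = 0.00035), a gain of 8.56% and 10.6%. In MOLM-13 it measured 13.54, 13.55 and 13.60 in DMSO, 13.38, 13.42 and 13.42 with DAC, and 13.46, 13.41 and 13.40 with NTX-301. There both drugs lowered it (-0.16 ± 0.025, adjusted p = 0.00050; -0.14 ± 0.025, adjusted p = 0.00085), so that treated and DMSO samples did not overlap in either line but lay on opposite sides. The SDHA call for NTX-301 in MOLM-13 was lost under quantile normalization (-0.036). The line differences were -0.28 ± 0.035 (DAC, adjusted p = 8.9e-06) and -0.29 ± 0.035 (NTX-301, adjusted p = 3.4e-06). SDHA has near-identical pseudogene copies in the genome, and how the authors' counting split such reads is not known.

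SDHB, the iron-sulfur subunit, measured 12.53, 12.54 and 12.53 in DMSO, 12.41, 12.37 and 12.44 with DAC, and 12.44, 12.43 and 12.53 with NTX-301 in HL-60. The MOLM-13 values were 12.76, 12.84 and 12.81, then 12.68, 12.64 and 12.62, then 12.56, 12.53 and 12.50 in the same order of groups. SDHB fell with DAC in both lines (-0.13 and -0.16); NTX-301 lowered it in MOLM-13 (-0.27 ± 0.028 SE, limma adjusted p = 1.6e-05) and was at -0.063 in HL-60, not called. SDHC and SDHD anchor the enzyme in the membrane. SDHC in MOLM-13 measured 11.83, 11.79 and 11.84 in DMSO, 11.92, 11.87 and 11.91 with DAC, and 11.86, 11.85 and 11.92 with NTX-301. It was the only member called higher with DAC in MOLM-13 (0.082 ± 0.028, adjusted p = 0.039), a call lost with samples centred (0.045) and on leaving out DMSO replicate 1, 2 or 3 or DAC replicate 1 or 3. NTX-301 left it at 0.057, not called. SDHD in MOLM-13 measured 13.71, 13.84 and 13.81 in DMSO, 13.68, 13.60 and 13.58 with DAC, and 13.55, 13.51 and 13.53 with NTX-301, falls of -0.16 and -0.25. So 1 membrane anchor fell in MOLM-13 while the other did not.

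**Figure D3:**
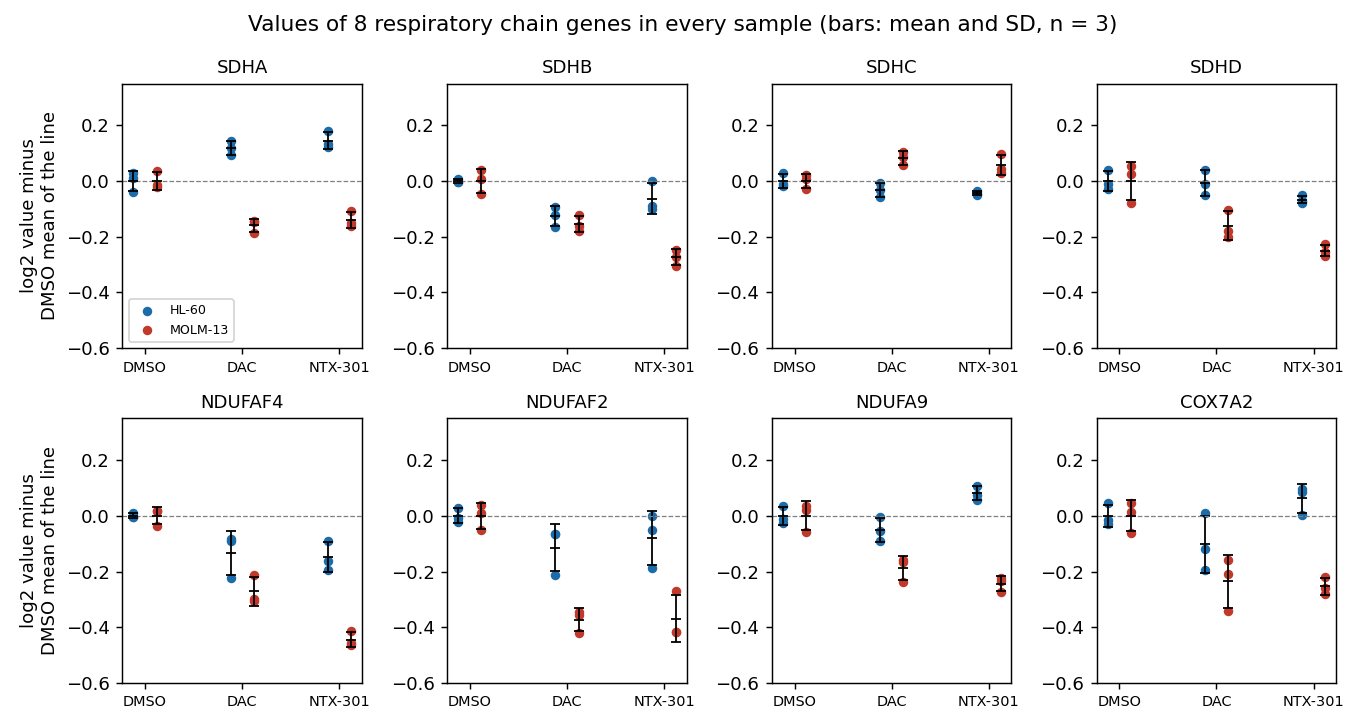
Log2 value in every sample minus the DMSO mean of its line. Shown are the 4 complex II genes, the complex I assembly factors NDUFAF4 and NDUFAF2, NDUFA9 of complex I and COX7A2 of complex IV. Points are samples, bars are mean and SD (n = 3), HL-60 in blue and MOLM-13 in red. SDHA lies above DMSO in the treated HL-60 samples and below it in the treated MOLM-13 samples, and NDUFAF4 reaches its lowest values with NTX-301 in MOLM-13.

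Complex III passes electrons from ubiquinol to cytochrome c. Of its 9 genes, DAC lowered 5 in HL-60 and 6 in MOLM-13, NTX-301 lowered 2 and 7, and none rose. The 2 are 22.2% of the complex, near the 19.2% of all genes and below the 34.1% of well-expressed genes. The other shares of all genes lower were 12.6% (DAC, HL-60), 21.2% (DAC, MOLM-13) and 24.8% (NTX-301, MOLM-13). DAC gave medians of -0.10 in HL-60 against -0.11 in MOLM-13; those with NTX-301 were -0.0093, which turned to 0.0056 under quantile normalization, and -0.18. UQCRH, the hinge subunit that helps bind cytochrome c1, measured 13.74, 13.83 and 13.80 in DMSO, 13.63, 13.58 and 13.54 with DAC, and 13.48, 13.47 and 13.47 with NTX-301 in MOLM-13. Its fall with NTX-301, -0.31 ± 0.030 SE (limma adjusted p = 8.6e-06), was -19.5% on the linear scale and its samples did not overlap DMSO or DAC. In HL-60 it measured 13.97, 14.00 and 13.99 in DMSO, 13.81, 13.78 and 13.87 with DAC, and 13.90, 13.88 and 13.95 with NTX-301, with differences of -0.17 and -0.078; the call for NTX-301 was lost under quantile normalization (-0.047) and without DMSO replicate 2 or 3 or NTX-301 replicate 1 or 2. UQCRHL, a near-identical intronless copy of UQCRH, had low values between 5.27 and 6.03 and was not called in any comparison; reads of the pair may have been split between them.

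UQCRC1, a core subunit of complex III, separated the drugs in MOLM-13. It measured 13.83, 13.87 and 13.85 in DMSO, 13.81, 13.80 and 13.78 with DAC, and 13.61, 13.60 and 13.64 with NTX-301. The NTX-301 samples lay below the other 6, by -0.24 ± 0.022 SE from DMSO (limma adjusted p = 7.2e-06) and -0.18 ± 0.022 from DAC (adjusted p = 0.0012); DAC itself was at -0.053, not called. In HL-60 its values kept between 13.23 and 13.34 and were not called. UQCRFS1, the Rieske iron-sulfur protein, measured 13.85, 13.88 and 13.91 in DMSO, 13.69, 13.66 and 13.63 with DAC, and 13.66, 13.57 and 13.63 with NTX-301 in MOLM-13. The Rieske protein's transcript was lower with each drug in each line, by -0.22 and -0.26 in MOLM-13 and by -0.10 and -0.094 in HL-60. The UQCRFS1 calls in HL-60 were less secure: DAC lost it without DMSO replicate 2 or DAC replicate 1 or 2, and NTX-301 under quantile normalization (-0.065) and without DMSO replicate 2 or NTX-301 replicate 2. The mobile carriers and partners outside the name rule were in part lower too: CYCS, cytochrome c, was at -0.27 and -0.45 in MOLM-13, and CYC1, cytochrome c1, at -0.18 and -0.32, all called.

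Complex IV, cytochrome c oxidase, hands electrons to oxygen. All 13 of its genes were lower with NTX-301 in MOLM-13, and 7 with DAC. In HL-60, 1 was lower with each drug (COX6C with DAC, NDUFA4L2 with NTX-301), and none was higher in either line. That 1 is 7.69% of the complex, where 12.6% of all genes were lower with DAC and 19.2% with NTX-301. In MOLM-13, 21.2% of all genes were lower with DAC and 24.8% with NTX-301. Under quantile normalization 8 of the 13 complex IV genes were lower with NTX-301 and 2 with DAC in MOLM-13, and 4 were higher with NTX-301 in HL-60. COX8A, the smallest class of subunit, measured 13.04, 13.10 and 13.05 in DMSO, 13.04, 13.05 and 13.06 with DAC, and 12.91, 12.85 and 12.84 with NTX-301 in MOLM-13. DAC samples overlapped DMSO and NTX-301 samples lay below both, by -0.19 ± 0.026 SE from DMSO (limma adjusted p = 9.9e-05) and -0.18 ± 0.026 from DAC (adjusted p = 0.0025).

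COX7A2, the widely expressed form of subunit 7A, measured 12.12, 12.18 and 12.11 in DMSO, 12.02, 11.94 and 12.14 with DAC, and 12.23, 12.14 and 12.22 with NTX-301 in HL-60. In MOLM-13 the samples read 13.48, 13.59 and 13.55 in DMSO, 13.38, 13.33 and 13.20 with DAC, and 13.32, 13.28 and 13.26 with NTX-301. NTX-301 lowered it in MOLM-13 (-0.25 ± 0.043 SE, limma adjusted p = 0.00054) and not in HL-60 (0.063, not called), and the line difference was -0.32 ± 0.067 (adjusted p = 0.00091). Its relative COX7A2L, which takes part in joining complexes III and IV, was at -0.086 with DAC and -0.12 with NTX-301 in MOLM-13, the second called. COX7B stood at -0.27 and -0.30 in MOLM-13, both called, and at -0.073 and -0.022 in HL-60, neither called.

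Other subunits follow. COX4I1, the common form of subunit 4, measured 14.01, 14.00 and 13.99 in DMSO, 13.94, 13.98 and 13.91 with DAC, and 13.87, 13.86 and 13.89 with NTX-301 in MOLM-13, a difference of -0.13 ± 0.023 SE for NTX-301 (limma adjusted p = 0.00080). COX5B measured 13.00, 13.06 and 12.99, then 12.95, 13.01 and 12.97, then 12.93, 12.94 and 12.81 in the same groups, with NTX-301 at -0.12. COX6A1 and COX6B1, the common isoforms of 6A and 6B, were at -0.20 and -0.11 with NTX-301 in MOLM-13, both called. The call with NTX-301 in MOLM-13 was lost under quantile normalization for COX4I1 (-0.027), COX5B (-0.024), COX6B1 (-0.0068) and COX7A2L (-0.033). For COX6B1 and COX7A2L it was also lost without DMSO replicate 2 or 3 or NTX-301 replicate 2 or 3, and for COX5B without DMSO replicate 2 or NTX-301 replicate 3. NDUFA4, first assigned to complex I and now to complex IV, was at -0.20 with NTX-301 in MOLM-13, and its paralogue NDUFA4L2, with low values between 4.83 and 5.95, was at -0.19 there and -0.088 in HL-60; all 3 were called. The NDUFA4L2 calls were lost without DMSO replicate 3 or NTX-301 replicate 1 in MOLM-13, and without DMSO replicate 1 or 2 or NTX-301 replicate 1 or 3 in HL-60.

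ATP synthase makes ATP in its F1 head, driven by rotation of the c ring in the membrane. Of its 15 genes, DAC lowered 8 in HL-60 and 13 in MOLM-13, NTX-301 lowered 5 and 14, and none rose. With DAC that is 53.3% and 86.7%, where 12.6% and 21.2% of all genes were lower. With NTX-301 it is 33.3% and 93.3%, where 19.2% and 24.8% of all genes were lower. In HL-60, 34.1% of the well-expressed genes were lower with NTX-301, near the share of ATP synthase. DAC gave medians of -0.074 in HL-60 against -0.14 in MOLM-13; those with NTX-301 were -0.011 and -0.21. Quantile normalization turned the ATP synthase median for NTX-301 in HL-60 to 0.021 and left 6 genes lower with DAC and 9 with NTX-301 in MOLM-13. All 7 genes of the membrane part and stalk were lower with each drug in MOLM-13. ATP5MF, subunit f of the membrane part, measured 12.83, 12.88 and 12.90 in DMSO, 12.59, 12.58 and 12.53 with DAC, and 12.63, 12.57 and 12.57 with NTX-301 in MOLM-13. Both treated groups lay about equally below DMSO, by -0.31 ± 0.028 and -0.28 ± 0.028 SE (limma adjusted p = 1.2e-05 for each).

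The c ring is encoded by 3 genes that yield the same mature protein with different import sequences, and they differed. ATP5MC1 measured 11.84, 11.91 and 11.84 in DMSO, 11.79, 11.83 and 11.91 with DAC, and 11.92, 11.88 and 11.88 with NTX-301 in HL-60. MOLM-13 gave 12.09, 12.15 and 12.12 in DMSO, 11.95, 11.88 and 11.86 with DAC, and 11.84, 11.81 and 11.80 with NTX-301. Treated and DMSO samples overlapped in HL-60 and were apart in MOLM-13 (-0.23 and -0.30 ± 0.030 SE), and the line difference for NTX-301, -0.33 ± 0.044 (limma adjusted p = 8.5e-06), was the largest of any member. ATP5MC3 was alike, at -0.041 and -0.020 in HL-60 (neither called) and -0.22 and -0.28 in MOLM-13 (both called). ATP5MC2 was lower with DAC in HL-60 (-0.098) and only by -0.089 with NTX-301 in MOLM-13, where quantile normalization turned it to 0.016 and the call was lost without DMSO replicate 2 or 3 or NTX-301 replicate 2.

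Within the F1 head, ATP5F1B, the catalytic beta subunit, measured 15.67, 15.74 and 15.70 in DMSO, 15.63, 15.60 and 15.67 with DAC, and 15.52, 15.51 and 15.53 with NTX-301 in HL-60. In MOLM-13 it measured 15.93, 15.97 and 15.98, then 15.86, 15.85 and 15.78, then 15.75, 15.70 and 15.71 in the same order of groups. NTX-301 gave the lowest values in each line and was below DAC in both (-0.12 ± 0.022 SE, limma adjusted p = 0.0011, in HL-60; -0.11 ± 0.027, adjusted p = 0.032, in MOLM-13). The ATP5F1B call between the drugs in MOLM-13 was lost with only the groups compared and without DMSO replicate 3, DAC replicate 1 or 2 or NTX-301 replicate 2 or 3. The fall with DAC in MOLM-13, -0.13, was 0.00064 under quantile normalization. ATP5F1D, the delta subunit, measured 10.52, 10.64 and 10.61 in DMSO, 10.63, 10.62 and 10.59 with DAC, and 10.42, 10.32 and 10.46 with NTX-301 in HL-60. It fell with NTX-301 and not with DAC, and the drugs differed by -0.21 ± 0.040 (adjusted p = 0.0010). ATP5F1A, the alpha subunit, was lower by -0.19 (DAC) and -0.21 (NTX-301) in MOLM-13 and by -0.082 with NTX-301 in HL-60. With DAC in HL-60 it stood at -0.074, a call lost under quantile normalization (-0.060) and without DMSO replicate 2 or 3 or DAC replicate 1 or 2.

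Compared directly, members called between the 2 drugs were mostly higher with NTX-301 in HL-60 and all lower with it in MOLM-13. In HL-60, 24 members (27.9%) were higher with NTX-301 than with DAC and 3 (3.49%) lower (NDUFV3, ATP5F1B and ATP5F1D). Of all genes, 15.4% were called higher and 15% lower. Of the 7298 well-expressed genes, 19.6% were higher and 25.5% lower. Of the 1825 that were also under 1000 bases, 25.2% were higher, near the members' share, and 20.9% lower. The 24 were 11 complex I, 3 complex III, 5 complex IV and 5 ATP synthase genes. With samples centred the split was 12 higher and 7 lower, and the count higher was 12 without DAC replicate 2 and 13 without NTX-301 replicate 3. In MOLM-13, 3.01% of all genes were called higher and 4.41% lower. Of the well-expressed genes 8.08% were lower there, and of the short ones among them 9.1%. No member was higher with NTX-301 than with DAC in MOLM-13 and 11 (12.8%) were lower. That count was 6 or fewer without DAC replicate 1 (6), DAC replicate 2 (4), NTX-301 replicate 2 (2) or NTX-301 replicate 3 (2), and 7 without DMSO replicate 3.

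**Figure D4:**
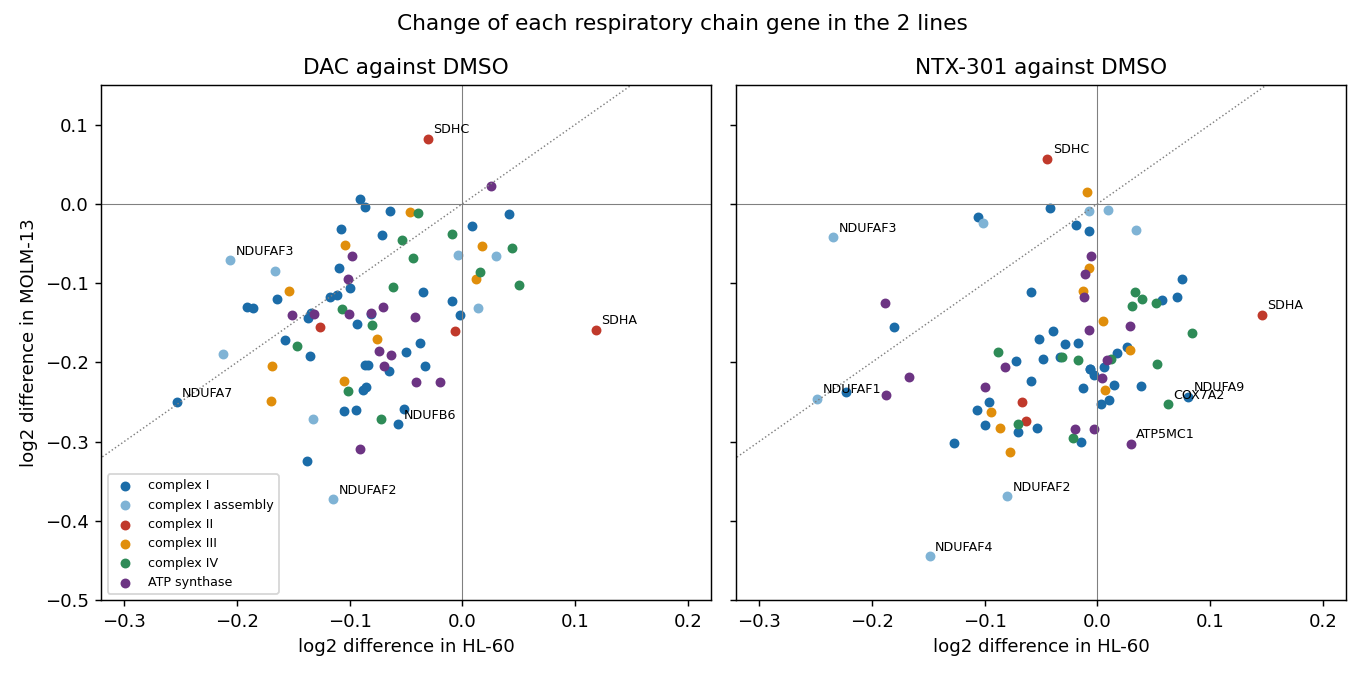
Log2 difference from DMSO of each of the 86 genes in HL-60 (x axis) and MOLM-13 (y axis), for DAC and for NTX-301, coloured by complex; the dotted line marks equal change. With NTX-301 most points lie below the dotted line, and SDHA lies to the right of and below 0 with both drugs.

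The test of the difference between lines asked whether a drug effect in MOLM-13 was more or less than that in HL-60. For DAC, 27 members had a lower effect in MOLM-13 and 1 (SDHC) a higher one, where 17.9% of the 15474 genes tested in both lines were called lower and 12.1% higher. Among the 7298 well-expressed genes 30.5% were lower, against 31.4% of the members. The DAC split was 7 lower and 7 higher under quantile normalization, and the count lower was 14 without HL-60 DAC replicate 3 and 15 without MOLM-13 DAC replicate 3. For NTX-301, 57 members were lower and 2 (SDHC and NDUFAF3) higher, where 22.4% of all genes were called lower and 17.6% higher, and 35.5% of the well-expressed genes lower. The members' median line difference was -0.058 for DAC, which became -0.0061 under quantile normalization, and -0.17 for NTX-301, which became -0.11 with 38 lower and 4 higher. Complex IV showed it most widely, with 12 of 13 genes lower for NTX-301.

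Of the members lower with DAC, 30 were lower in both lines, which is 78.9% of the 38 in HL-60 and 48.4% of the 62 in MOLM-13. With NTX-301, 16 were lower in both lines, 88.9% of the 18 in HL-60 and 21.9% of the 73 in MOLM-13. Of all 86 members, 72.1% were lower with DAC in MOLM-13 and 44.2% in HL-60. With NTX-301 these were 84.9% and 20.9%. The shares in common were thus near those of all members, and the overlap over all genes is not given here. SDHA (both drugs), NDUFA9 and NDUFB11 (NTX-301) were higher in HL-60 and lower in MOLM-13. Across the 86 members, the HL-60 and MOLM-13 differences had a Pearson r of 0.32 for DAC and 0.20 for NTX-301; members of one complex and of one sample share scaling and depth, and these values are a description.

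Before treatment the members tended to be higher in MOLM-13, with a median 0.29 above that of all shared genes. The share of all shared genes within 1 log2 unit was not counted. Relative to the median of all shared genes, 78 of the 86 members lay within 1 log2 unit between MOLM-13 and HL-60 in DMSO; no test was made, since the lines appear normalized apart. The 8 others were all higher in MOLM-13. UQCRB of complex III (2.45), NDUFB9 of complex I (2.44), COX6C of complex IV (2.24) and the assembly factor NDUFAF6 (1.74) lie on chromosome 8 and are the only 4 members there. Of 201 genes on that chromosome with a log2 level of at least 10, 92.5% were more than 1 unit higher in MOLM-13, with a median of 2.04. The other 4 were ATP5F1C (1.33), COX4I1 (1.32), COX7A2 (1.25) and UQCRFS1 (1.0). On the chromosomes listed other than 8, 2.52% (chromosome 18) to 17.9% (chromosome 13) of genes at that level were more than 1 unit higher. On those of the other 4 members it was 10.3% (chromosome 10), 3.70% (16), 14.2% (6) and 7.74% (19), in the same order. COX6C, on chromosome 8, measured 11.81, 11.77 and 11.78 in HL-60 DMSO and 14.12, 14.25 and 14.20 in MOLM-13 DMSO. It was lower with DAC in both lines (-0.15 and -0.18) despite this gap in level.

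The regulators of mitochondrial gene expression were read from a list of 15 genes. DAC lowered 6 in HL-60 and 9 in MOLM-13, NTX-301 lowered 9 and 11, and none was higher. With DAC that is 40% and 60%, where 12.6% and 21.2% of all genes were lower. With NTX-301 it is 60% and 73.3%, where 19.2% and 24.8% of all genes were lower. TFAM, which packages mitochondrial DNA and starts its transcription, stood at -0.030 with DAC and -0.11 with NTX-301 (called) in HL-60, against -0.17 and -0.34 (both called) in MOLM-13. TFB2M, a mitochondrial transcription factor, was called lower each time, at -0.12 and -0.16 in HL-60 cells and -0.25 and -0.35 in MOLM-13 cells. NRF1 itself was called only with DAC in MOLM-13 (-0.16, limma adjusted p = 0.015), GABPA stood at -0.17 and -0.25 there, and YY1 at -0.18 and -0.20. The mitochondrial polymerase POLRMT was at -0.061 with DAC, not called, and -0.24 with NTX-301 in MOLM-13. These transcripts were lower in the MOLM-13 samples in which the mitochondrial DNA encoded subunits were higher, and a link between them was not tested.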

How the data were processed

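Gene expression was measured by stranded total RNA sequencing. The authors deposited 1 table per sample with 1 normalized log2 value per gene. The submitters' processing notes name FastQC, Trimmomatic 0.38, HISAT2, StringTie and build hg19; the normalization, annotation release and use of strand are not given in the sources used here. Depth is unknown, so precision rests on the spread of 3 replicates.

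Samples were grouped by the labels' line and treatment. The test was limma 3.58.1 (R 4.3.3; lmFit, eBayes with trend, two-sided) on every gene reaching a log2 value of 0 in 3 or more samples: 9 samples of a line in 1 fit with 6 residual degrees of freedom, and 18 samples for the difference between lines. The Benjamini-Hochberg adjustment ran over the whole table. The steps were tested on simulated data. Alternatives were centring, quantile normalization, no trend, only the groups compared, a replicate block, no filter, a stricter filter (mean of at least 5), a minimum change of 0.1 and leaving out each sample. Members chosen for description are the 3 highest and 3 lowest called per comparison, a set of subunits of each complex and isoform partners. SDHD and COX6C were added after their values were seen. Not all are given with every sample's value, and some, such as COX7B, COX6A1 and ATP5F1A, are given as differences only. The members and lists were chosen with earlier results of these data known.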

Additional observations from a re-analysis of the deposited data

Results flagged for a closer look

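Among members called in the test of the difference between lines (MOLM-13 minus HL-60 on the log2 scale, limma), 8 were singled out. They are the highest and lowest among those called in that same test, so their calls followed from the choice. Other members were called too, among them SDHA and NDUFAF2 for NTX-301. For DAC the differences were SDHA -0.28, NDUFAF2 -0.26, NDUFB6 -0.22 and SDHC 0.11. For NTX-301 they were ATP5MC1 -0.33, NDUFA9 -0.32, COX7A2 -0.32, NDUFAF3 0.19 and SDHC 0.10. SDHA was called in both lines with opposite sign for both drugs, but the NTX-301 call in MOLM-13 was lost under quantile normalization (-0.036). NDUFA9 was higher in HL-60 and lower in MOLM-13 with NTX-301. ATP5MC1 and COX7A2 were called with NTX-301 in MOLM-13 alone, NDUFB6 and NDUFAF2 with DAC in MOLM-13 alone, and NDUFAF3 with NTX-301 in HL-60 alone. The SDHC differences were lost with samples centred (0.076 for DAC, 0.099 for NTX-301). They were also lost without HL-60 DMSO replicate 1 or MOLM-13 DMSO replicate 2 for both drugs, without HL-60 DAC replicate 1 for DAC, and without HL-60 NTX-301 replicate 1 or MOLM-13 NTX-301 replicate 3 for NTX-301. The stated concentration also differs between the lines, and its part cannot be told apart from that of the line.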

How the results depend on the processing

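Requiring a change beyond 0.1 left few calls: HL-60 had 0 higher and 0 lower for DAC, 0 and 3 for NTX-301, and 0 and 0 for NTX-301 against DAC; in MOLM-13 0 and 20 for DAC, 44 lower for NTX-301, and 0 lower for NTX-301 against DAC; between lines 0 and 1 for DAC and 0 and 19 for NTX-301. Centring gave 1 higher and 31 lower for HL-60 with NTX-301, 12 and 7 for NTX-301 against DAC there, 0 higher for DAC in MOLM-13, and between lines 0 higher for DAC and 1 for NTX-301. Quantile normalization gave 7 higher for HL-60 with NTX-301; 3 higher and 32 lower for DAC and 2 higher for NTX-301 in MOLM-13; and between lines 7 and 7 for DAC and 4 higher for NTX-301. It reversed ATP5F1B with DAC (0.00064) and ATP5MC2 with NTX-301 (0.016) in MOLM-13; the cause was not tested. With only the groups compared, 0 were higher for DAC in MOLM-13 and 6 lower for NTX-301 against DAC.

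Leaving out 1 sample gave 20 to 44 lower for DAC in HL-60, 1 to 3 higher and 12 to 23 lower for NTX-301, and 12 to 27 higher and 3 to 4 lower for NTX-301 against DAC. In MOLM-13 it gave 0 to 1 higher and 48 to 64 lower for DAC, 63 to 74 lower for NTX-301, and 2 to 11 lower for NTX-301 against DAC. Between lines it gave 0 to 2 higher and 14 to 28 lower for DAC, and 1 to 3 and 52 to 62 for NTX-301. Deviations of same-numbered samples correlated between -0.16 and 0.12, so the numbers were not taken as pairs; with a replicate block, the count lower for NTX-301 against DAC in MOLM-13 was 4 in place of 11 (NDUFV1, ATP5F1B, SDHB and UQCRH were among those not called), and the other 7 comparisons kept their counts within 1.5 times. For all genes, centring moved the calls for NTX-301 in HL-60 from 18.3% higher and 19.2% lower to 13.6% and 31.7%, for NTX-301 against DAC there from 15.4% and 15% to 10.7% and 28.5%, for DAC in MOLM-13 from 15.4% and 21.2% to 11.2% and 32.8%, for NTX-301 there from 20.3% and 24.8% to 15.7% and 33%, and for the DAC line difference from 12.1% and 17.9% to 8.78% and 28.3%. Depth is unknown and limits what low genes such as UQCRHL and NDUFA4L2 can show.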

Other observations

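Other nuclear genes of mitochondrial function were read from lists beside the respiratory chain. Of 78 mitochondrial ribosomal proteins, DAC lowered 36 in HL-60 and 67 in MOLM-13 (medians -0.088 and -0.20), and NTX-301 lowered 23 and 71 (medians -0.039 and -0.24). Of 43 assembly factors outside the NDUFAF names, 28 were lower and 1 higher with DAC in MOLM-13, and 30 lower and 3 higher with NTX-301; in HL-60, 13 and 16 were lower and 2 higher with each drug. Of 18 enzymes of the citric acid cycle, 15 were lower with each drug in MOLM-13 and none higher. In HL-60, 3 (16.7%) were lower with DAC and 7 (38.9%) with NTX-301. That line's background was 12.6% (DAC) and 19.2% (NTX-301) of all genes lower, or 22.05% and 34.1% of the well-expressed ones. Its NTX-301 shares for mitochondrial ribosomal proteins (29.5%), assembly factors (37.2%) and cycle enzymes were thus near the well-expressed share. With DAC, the cycle enzymes lay below that share, and mitochondrial ribosomal proteins (46.2%) and assembly factors (30.2%) above it. For MOLM-13, 21.2% (DAC) and 24.8% (NTX-301) of all genes were lower, or 42.4% and 48.9% of the well-expressed ones. The shares of the lists above ran from 65.1% to 91.0% there. Of 80 cytosolic ribosomal proteins, 64 were lower with DAC in HL-60 and 16 with NTX-301, the latter 20% and near the share of all genes. In MOLM-13, 23 (28.75%) were lower with DAC and 27 (33.75%) with NTX-301, below the shares of well-expressed genes. The MOLM-13 medians of the cytosolic ribosomal proteins, -0.066 and -0.057, turned to 0.018 and 0.034 under quantile normalization.

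DHODH, which feeds electrons to the chain from pyrimidine synthesis, was lower in all 4 comparisons with DMSO: HL-60 cells gave -0.14 with DAC and -0.20 with NTX-301, MOLM-13 cells -0.24 and -0.20.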
